A study of Mus musculus with 16 samples.

Results

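Dppa2 and Dppa4 are 2 of the 24978 gene symbols in a table of nascent transcripts from mouse embryonic stem cells, and were chosen by symbol, with the widest line of each symbol and both allele values in all 16 libraries. The assay, Bru-seq, labels RNA as it is made: cells are given bromouridine, here 2 mM for 30 min, and the labelled RNA is pulled down and sequenced. The cells were F121-9, a cas/129 hybrid line whose reads can be assigned to the castaneus (cast) or the 129 copy by sequence differences, and edited derivatives of it, all kept in 2i plus LIF. Dppa2 and Dppa4 encode small DNA-binding proteins that form a heterodimer in pluripotent cells and the early embryo. In mouse embryonic stem cells the pair is known to bind CpG-rich promoters that carry both active and repressive histone marks, and to be needed for expression of Dux and of a set of germline genes. The questions addressed were whether the second copy is read more when the first is nearly silent, which edits separate the 2 neighbouring genes, and how their summed level moved beside other genes.

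The groups, named as in the labels, were abc.del, ab.del and c.del with 2 libraries each, ac.del, bc.del, a.del, b.del, 100kdel, 245kdel, 680kinv and 4k.b.c with 1 library each, and the F121-9 line with 2 libraries. The letters a, b and c were read as names of sites, and del and inv as deletion and inversion. Called lettered here are the 12 libraries of F121-9 and of groups labelled only by these letters and del. The 4k.b.c, 100kdel, 245kdel and 680kinv libraries are not among them. The labels state neither the position of a site nor which copy was edited, and a copy is never called deleted here. Sample names within abc.del, ab.del and c.del end in different codes, but whether replicates came from separate cultures is not stated, and p-values therefore measure only how far these samples spread. A group of 1 library gets no test of its own. Libraries held 8.96 M to 32.0 M allele-assigned reads, where M is 1000000. The sample numbers form 2 runs of 8 libraries, whose meaning the labels do not give: abc.del, the first ab.del and c.del libraries, bc.del, 680kinv and F121-9 in run 1, and the others in run 2. All 8 embryonic stem cell markers looked at were present, with a summed 3095 to 4335 CPM (reads scaled to a column total of 1000000, here 129 plus cast), against 0 to 3.04 CPM for 6 fibroblast markers. Each copy is given as CPM over its own column, and a summed level is the 129 value plus the cast value.

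On mm10, Dppa4 lies at 16:48283735-48294292 and Dppa2 at 16:48310274-48319513, both on the plus strand, 15981 bases apart, with Dppa4 upstream. GENCODE has 3 Dppa4 transcripts of 2 to 7 exons and 2 Dppa2 transcripts of 7 to 8 exons, and starts Dppa2 further upstream, at 48303908. No annotated gene on the opposite strand overlaps either one. In F121-9 the 2 copies of each gene were not read equally. Dppa2 gave 23.0 and 20.4 CPM from 129 and 15.8 and 12.1 CPM from cast, so that 59.3% and 62.8% of its level came from 129. Dppa4 gave 14.8 and 13.5 CPM from 129 and 19.6 and 18.7 CPM from cast, with 42.9% and 41.8% from 129. Over 343 genes of chromosome 16 the median 129 share was 49.6% and 49.5% in the same libraries. Per kb of gene, the summed level of Dppa2 was 1.29 and 1.15 times that of Dppa4. A read counts only if it covers a sequence difference, so a level per kb also depends on how many differences a gene holds.

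**Figure D1:**
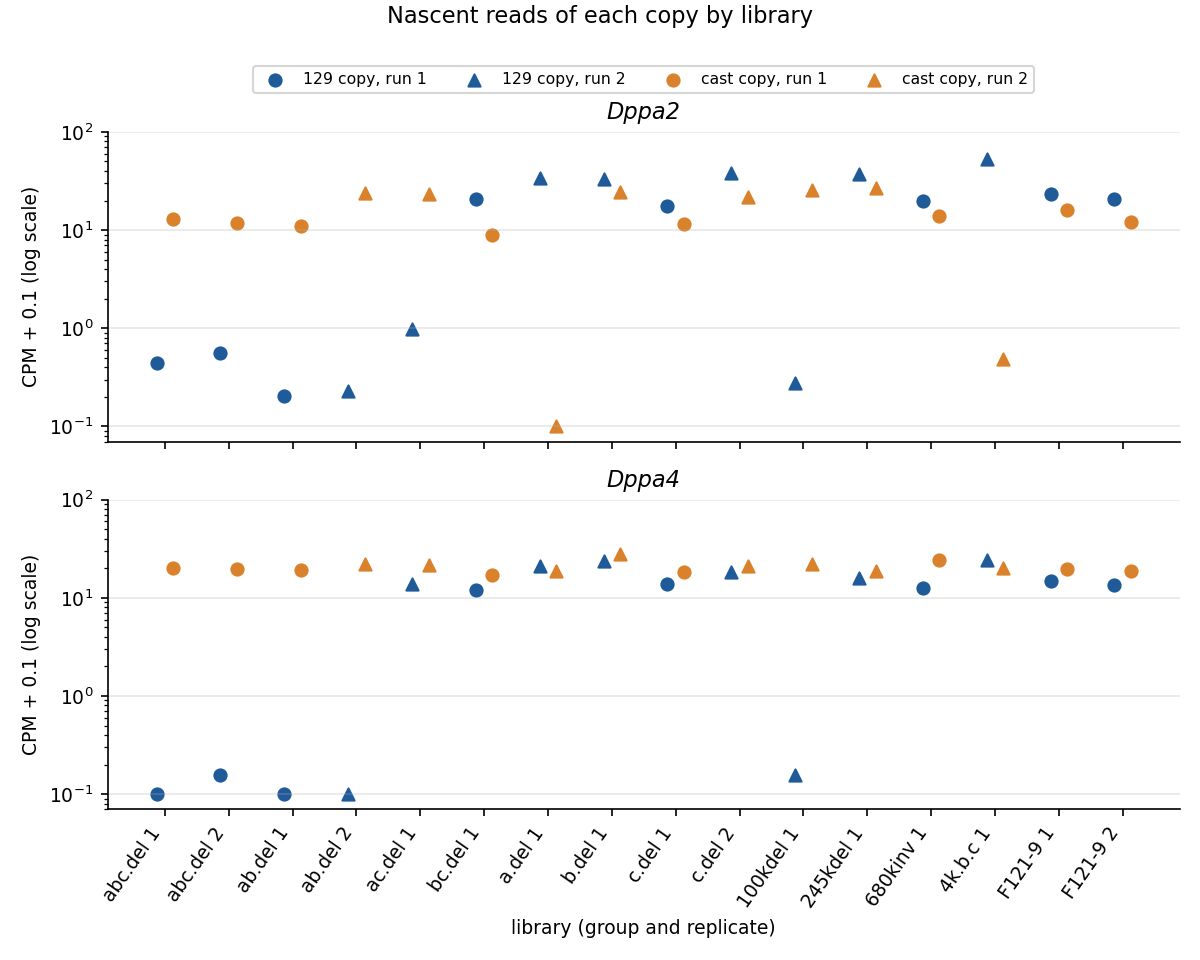
CPM + 0.1 (y axis, log scale) of the 129 copy (blue) and the cast copy (orange) of Dppa2 and Dppa4 by library (x axis, 16 libraries), a point for each copy; circles are run 1 and triangles run 2 of the sample numbers. A Dppa2 copy lies below 1 CPM in 8 libraries, a Dppa4 copy in 5, and cast Dppa4 stays between 16.8 and 27.9 CPM throughout.

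Dppa2 had 1 nearly silent copy wherever the label names site a. From 129 it gave 0.345 and 0.460 CPM in abc.del, 0.104 and 0.129 CPM in ab.del and 0.888 CPM in ac.del, against 23.0 and 20.4 CPM in F121-9. Pooled over libraries, the F121-9 level was 55.2 times that of abc.del (95% counting interval 33.3 to 99.1), 187 times that of ab.del (79.6 to 576) and 24.7 times that of ac.del (17.4 to 36.4). None of these 5 libraries came near an F121-9 library. In a.del the silent copy was the other one: no cast read of Dppa2 was counted (0 reads), which puts it at least 89.3-fold lower than F121-9 with a floor of 3 reads, and the 129 copy gave 33.6 CPM. In the lettered libraries without site a, both copies were read. The 129 copy gave 20.5 CPM in bc.del, 33.1 CPM in b.del and 17.5 and 38.2 CPM in c.del, and the cast copy gave 8.82, 24.3, 11.4 and 21.6 CPM in the same libraries. In these libraries and in F121-9 the 129 share of Dppa2 ran from 57.7% in b.del to 69.9% in bc.del, and none of them was near monoallelic. Outside the lettered libraries, 100kdel (3 reads from 129) and 4k.b.c (4 reads from cast) had a nearly silent Dppa2 copy without site a in the label.

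Dppa4 had a nearly silent copy in fewer libraries. From 129, abc.del held 0 reads and 1 read of it, and ab.del 0 reads in each library, against 380 and 220 reads in F121-9. The pooled F121-9 level was 538 times that of abc.del (95% counting interval 96.3 to 21302), and ab.del was at least 101-fold lower by a floor of 3 reads per library. With site a in the label but not site b, Dppa4 was read from both copies. It gave 13.7 CPM from 129 and 21.5 CPM from cast in ac.del, and 21.2 and 18.8 CPM in a.del. With site b but not site a it gave 11.9 and 16.8 CPM in bc.del, and 23.8 and 27.9 CPM in b.del. So ac.del and a.del were the lettered libraries in which 1 copy of Dppa2 was below 1 CPM while both copies of Dppa4 were above 13 CPM, and no library showed the opposite. Near-silence of Dppa4 was seen with a and b named together, in 4 of 4 libraries, and in 100kdel.

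The remaining edits gave different pictures. In 100kdel both genes were low from 129, with 3 reads for Dppa2 and 1 read for Dppa4, beside 25.3 and 21.8 CPM from cast. In 4k.b.c Dppa2 was low from cast, with 4 reads (0.387 CPM, the F121-9 level being 37.1 times as high, 95% counting interval 14.4 to 136), while its 129 copy gave 53.2 CPM, the highest value of either copy in the 16 libraries. Dppa4 was read from both copies there, with 24.0 CPM from 129 and 20.2 CPM from cast. In 245kdel and 680kinv both genes were read from both copies: Dppa2 gave 37.4 and 26.6 CPM (129 and cast) in 245kdel and 19.8 and 13.8 CPM in 680kinv. Dppa4 gave 15.7 and 18.8 CPM in 245kdel and 12.6 and 24.1 CPM in 680kinv, where its 129 share of 34.4% was the lowest among libraries that read both copies.

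Over all genes, the 129 values of the 4 groups of 2 libraries were fitted together with limma on log2(CPM + 0.1). Both Dppa2 and Dppa4 fell in abc.del against F121-9, where 0.250% of 13985 genes passed in either direction at an adjusted p of 0.05, and in ab.del, where 0.215% did. The log2 difference of Dppa2 was -5.45 in abc.del (SE 0.56, limma adjusted p = 0.00672) and -6.65 in ab.del (SE 0.56, adjusted p = 0.00286). Dppa4 passed with adjusted p = 0.00353 in abc.del and 0.00321 in ab.del, where its fitted change depends on the pseudocount. Neither gene passed from 129 in c.del, with differences of 0.25 for Dppa2 (95% interval -1.01 to 1.52) and 0.16 for Dppa4 (-1.25 to 1.57), and 0% of genes passed (0 in edgeR, 126 in DESeq2, and 1065 by unadjusted limma p under 0.05). The 3 comparisons share the F121-9 libraries, and the calls rest on both of them. Without F121-9 replicate 1 the adjusted p of Dppa2 was 0.337 in abc.del and 0.234 in ab.del, and that of Dppa4 0.254 and 0.225. Without F121-9 replicate 2 these were 0.310, 0.247, 0.227 and 0.247. Leaving out abc.del replicate 1 cost Dppa2 its call in abc.del too (adjusted p = 0.106), as did leaving out replicate 2 (0.0878), which did the same for Dppa4 (0.0537). On recovered reads, edgeR and DESeq2 called both genes lower in both comparisons. EdgeR called 0.129% of genes lower in abc.del and 0.122% in ab.del, and DESeq2 2.89% and 2.17%. Fewer cells that read a gene and less RNA per cell cannot be told apart in bulk libraries.

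Because the edited copy is not labelled, the 12 lettered libraries were also compared by site on the lower of the 2 copies in each library. For Dppa2 the lower copy gave 0 to 0.888 CPM (median 0.237) in the 6 libraries naming site a and 8.82 to 24.3 CPM (median 13.9) in the 6 without it. The 2 sets did not overlap, which held for 0.106% of 14094 genes. The mean log2 difference of -5.52 was tested by exact permutation over the 924 splits (two-sided p = 0.00216, the smallest they allow) and did not pass over all genes (adjusted p = 0.640). Neither set holds 4k.b.c, whose label has the letters b and c but not a, nor 100kdel. Their lower Dppa2 copies were 0.387 and 0.175 CPM, inside the range of the libraries naming site a. Those of 245kdel and 680kinv, also left out, were 26.6 and 13.8 CPM. In run 1 (3 lettered libraries with site a, 4 without) the ranges were 0.104 to 0.460 CPM and 8.82 to 15.8 CPM. In run 2 (3 with, 2 without) they were 0 to 0.888 CPM and 21.6 to 24.3 CPM. How many genes separate in this way within a run was not counted. In a limma fit with additive terms for the 3 sites, lower Dppa2 with site a was the 1 gene that passed, 0.00710% of those tested (-5.52, SE 0.54, adjusted p = 0.0127), and with the run of sample numbers added it was again the 1 gene (-5.63, adjusted p = 0.0392). Dppa2 gave no such split by site b, where the limma term, fitted beside site a, was 0.03 (SE 0.54, adjusted p = 0.995). Compared by site b alone, its difference ran from -2.89 to -1.31 as each library was left out in turn. In 4 of the lettered libraries sites a and b are named together. For Dppa4 the lower copy ran from 0 to 18.8 CPM with site a and from 11.9 to 23.8 CPM without it, so the sets overlapped. Its differences of -4.73 for site a (exact permutation p = 0.0390) and -4.69 for site b (p = 0.0455) were alike in size and passed in no test over all genes, with adjusted p of 0.678 and 1.00. At an unadjusted exact p of at most 0.05, 7.06% of genes were listed for site a and 3.65% for site b. The difference between the 2 genes was not tested.

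Whether the copy that was still read rose was asked first of the cast copy in abc.del and ab.del. Cast Dppa2 averaged 12.4 ± 0.785 CPM in abc.del and 17.3 ± 9.27 CPM in ab.del, against 13.9 ± 2.59 CPM in F121-9 (SD, n = 2 each). Cast Dppa4 averaged 19.9 ± 0.517 CPM in abc.del and 20.4 ± 1.90 CPM in ab.del, against 19.2 ± 0.636 CPM in F121-9. To hold the F121-9 sum with no output from 129, the cast copy would have had to rise 2.56-fold for Dppa2 (1.35 on the log2 scale) and 1.74-fold for Dppa4 (0.80). The limma difference for Dppa2 was -0.16 in abc.del (95% interval -1.22 to 0.90, adjusted p = 0.966) and 0.21 in ab.del (-0.85 to 1.28, adjusted p = 0.965). For Dppa4 it was 0.05 in abc.del (-0.51 to 0.61, adjusted p = 0.982) and 0.09 in ab.del (-0.47 to 0.64, adjusted p = 0.974). Neither gene passed, and 0% of 13870 genes did. Unadjusted limma p-values were under 0.05 for 1079 genes in abc.del and 779 in ab.del, where edgeR called 0 and 0 genes and DESeq2 149 and 50. All 4 intervals ended below the rise needed, so full replacement was outside them while smaller rises were not. With the run of sample numbers as covariate the Dppa2 intervals narrowed to -0.70 to 0.39 in abc.del and -0.91 to 0.31 in ab.del.

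**Figure D2:**
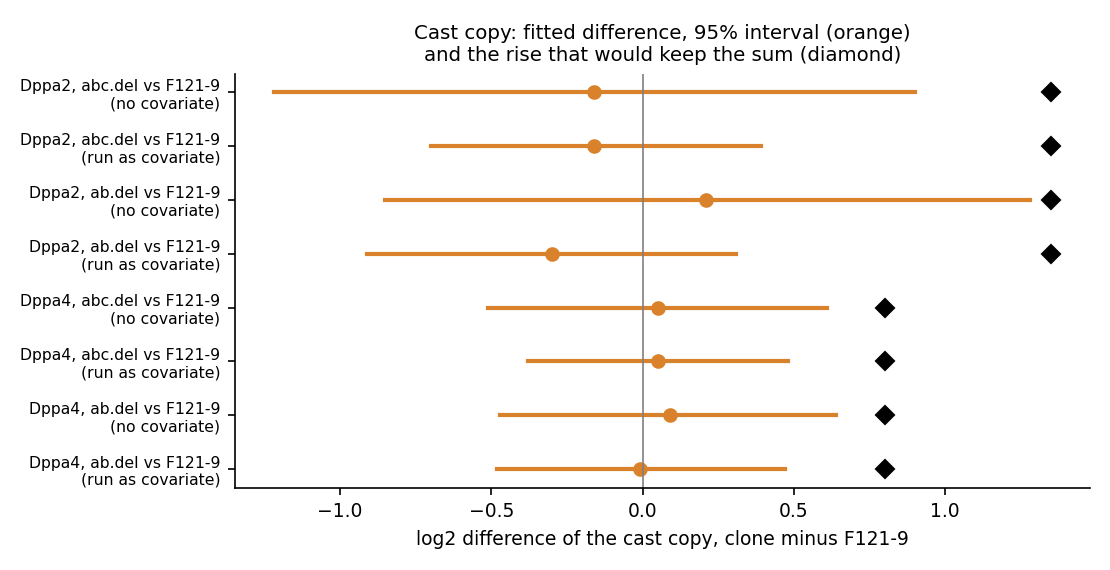
Difference of the cast copy between each clone group and F121-9 on the log2 scale (x axis), with its 95% limma interval (orange line, point at the estimate), for Dppa2 and Dppa4 with and without the run of sample numbers as covariate (y axis); black diamonds mark the rise that would keep the summed F121-9 level. Every interval drawn ends left of its diamond, closest for Dppa2 in ab.del without the covariate, at 1.28 against 1.35.

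That bound was not firm for every refit. Of 22 refits each, the interval reached the rise needed in 2 for Dppa2 in abc.del, in 7 for Dppa2 in ab.del, and in 3 for Dppa4 in each group. All but 2 of these left out 1 library. The highest upper bounds were 1.52 and 1.89 for Dppa2 in abc.del and ab.del, without F121-9 replicate 1, and 0.88 and 0.87 for Dppa4, when abc.del replicate 2 or F121-9 replicate 1 was left out, in that order. The other 2 were the Dppa2 fits in ab.del without a filter on low values and without an intensity trend.

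Within each run, the cast levels of Dppa2 with and without site a in the label interleaved. In run 1 cast Dppa2 was 12.9 and 11.8 CPM in abc.del and 10.8 CPM in ab.del, against 8.82 CPM in bc.del, 11.4 CPM in c.del and 15.8 and 12.1 CPM in F121-9. In run 2 it was 23.9 CPM in ab.del and 23.2 CPM in ac.del, against 24.3 CPM in b.del and 21.6 CPM in c.del. In a.del, where cast was silent, the 129 copy at 33.6 CPM lay beside 33.1 CPM in b.del and 38.2 CPM in c.del replicate 2, also of run 2. The 53.2 CPM from 129 in 4k.b.c lay above the 37.4 CPM of 245kdel and the 38.2 CPM of c.del, the next values of run 2, and it was 1 library. Cast Dppa4 was steadier, with 18.8 to 21.8 CPM in the 6 libraries naming site a and 16.8 to 27.9 CPM in the 6 lettered libraries without it. The higher Dppa2 copy gave 10.8 to 33.6 CPM with site a and 17.5 to 38.2 CPM without it. It was cast in 5 of 6 libraries with site a and 129 in 6 of 6 without it, so the comparison sets different copies against each other and does not show whether the remaining copy rose. The difference in the higher copy was -0.46 for Dppa2 (exact permutation p = 0.199, adjusted p = 0.821) and 0.03 for Dppa4 (p = 0.820, adjusted p = 0.965), and 6.99% of genes had an exact p of at most 0.05.

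**Figure D3:**
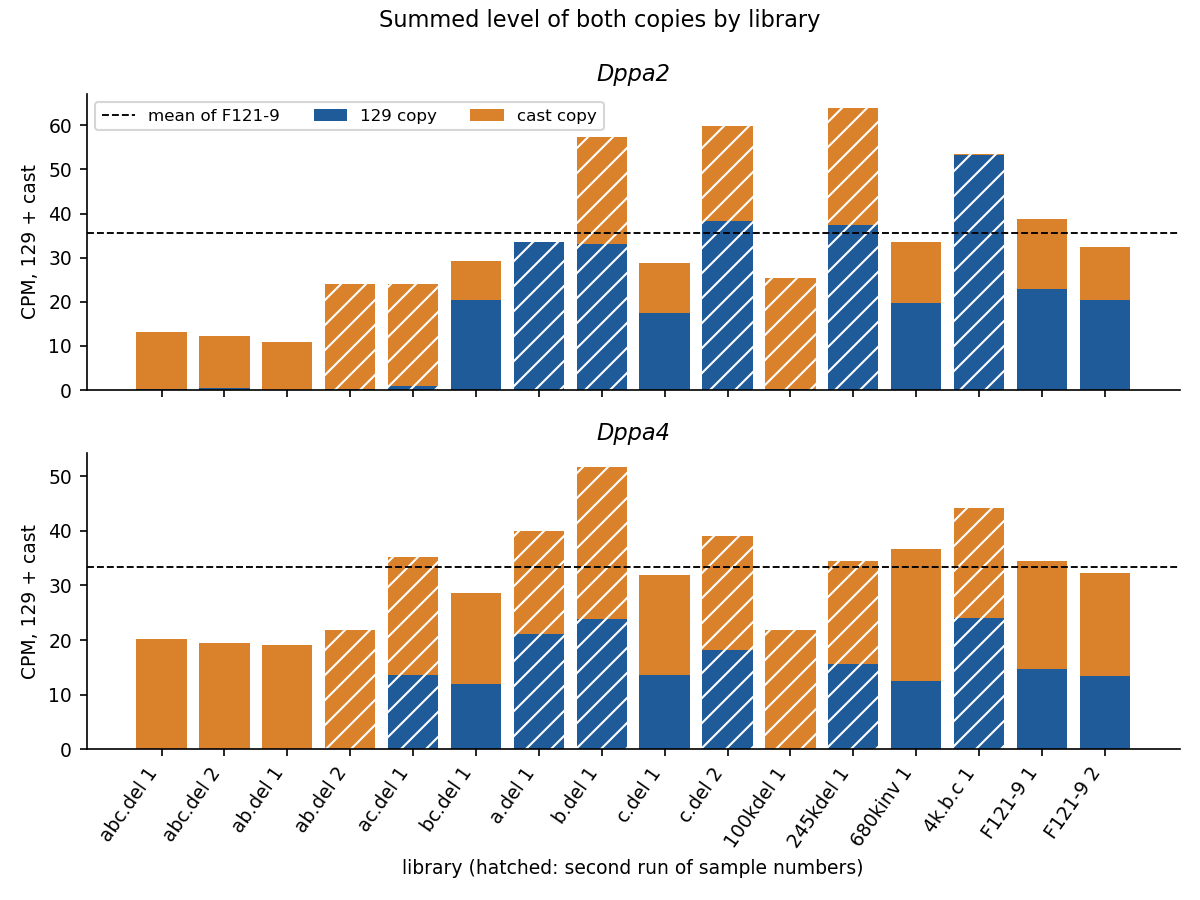
Summed CPM of Dppa2 and Dppa4 (y axis) in each library (x axis), with the 129 copy in blue below and the cast copy in orange above; hatched bars are run 2 of the sample numbers and the dashed line is the F121-9 mean, 35.6 CPM for Dppa2 and 33.3 CPM for Dppa4. Dppa2 runs from 10.9 CPM in ab.del replicate 1 to 64.0 CPM in 245kdel, and Dppa4 from 19.1 to 51.7 CPM.

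The summed level of Dppa2 had its lowest group mean in abc.del, 12.8 ± 0.704 CPM (SD, n = 2), and was highest in 245kdel. It was 13.3 and 12.3 CPM in abc.del, 10.9 and 24.0 CPM in ab.del, and 38.7 and 32.5 CPM in F121-9, so no abc.del or ab.del library reached F121-9, as was so for 14.6% of 14094 genes. Below F121-9 were also ac.del at 24.1 CPM, 100kdel at 25.5 CPM and bc.del at 29.3 CPM, while 680kinv at 33.5 CPM and a.del at 33.6 CPM lay between the F121-9 libraries. Higher means were those of c.del at 44.4 ± 21.8 CPM (SD, n = 2), 4k.b.c at 53.6 CPM, b.del at 57.4 CPM and 245kdel at 64.0 CPM. The c.del libraries, at 28.9 and 59.8 CPM, enclose bc.del, 680kinv, a.del, 4k.b.c, b.del and F121-9, so the order among these is not resolved. As a share of the F121-9 mean, Dppa2 stood at 37.3% and 34.5% in abc.del, 30.5% and 67.4% in ab.del and 94.4% in a.del.

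Dppa4 varied less. Its sum was 20.2 and 19.6 CPM in abc.del, 19.1 and 21.8 CPM in ab.del and 21.9 CPM in 100kdel, against 34.4 and 32.2 CPM in F121-9. That is 57.2% to 65.3% of the F121-9 mean in the 4 libraries naming a and b, where the cast copy alone was 19.2 CPM in F121-9. The other libraries held 28.8 CPM in bc.del, 32.0 and 38.9 CPM in c.del, 34.4 CPM in 245kdel, 35.2 CPM in ac.del, 36.7 CPM in 680kinv, 40.0 CPM in a.del, 44.3 CPM in 4k.b.c and 51.7 CPM in b.del. The split into 5 low libraries and these 11, at 21.9 against 28.8 CPM, was drawn on these same values and is a description.

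In the limma fit of summed levels neither gene passed in abc.del or ab.del, against 0.206% and 0.0426% of 14094 genes that passed as lower. Dppa2 differed by -1.46 in abc.del (SE 0.45, limma adjusted p = 0.280) and by -1.12 in ab.del (SE 0.45, adjusted p = 0.584). Dppa4 differed by -0.74 (SE 0.26, adjusted p = 0.355) and -0.70 (SE 0.26, adjusted p = 0.537). In c.del the differences were 0.23 for Dppa2 (adjusted p = 0.882) and 0.08 for Dppa4 (0.932), neither passing, where 0.0497% of genes passed. The call for Dppa2 depended on the fit. With the run of sample numbers as covariate it passed at -1.46 in abc.del (adjusted p = 0.00842) and at -1.67 in ab.del (adjusted p = 0.0134), where 3.39% and 1.09% of all genes passed as lower. It also passed in abc.del with only the 2 groups in the fit (adjusted p = 0.0111, 3.26% of genes lower) and by DESeq2 (adjusted p = 0.00685, 2.20% lower). With median centring added to the run it passed in both, where 4.83% and 1.63% of genes were lower, and in edgeR with the run also (adjusted p = 0.00488 and 0.00942, 3.60% and 1.15% lower). Dppa4 passed in 1 fit, edgeR with the run as a term (-0.81 in abc.del, adjusted p = 0.0477). By site, summed Dppa2 was 10.9 to 33.6 CPM (median 18.6) in the 6 libraries naming site a and 28.9 to 59.8 CPM (median 35.6) in the 6 without it. The difference of -1.11 did not pass in the exact permutation test (p = 0.00866, adjusted p = 0.601), where 7.26% of genes had a p of at most 0.05. It was -1.39 within run 1 and -1.12 within run 2, and in the limma fit with 3 sites and the run it was -1.20 (SE 0.15, adjusted p = 0.0128), where 0.0426% of genes passed.

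Dppa2 also differed between the runs of sample numbers, while the difference of Dppa4 did not pass. In ab.del, cast Dppa2 was 23.9 CPM in the run 2 library and 10.8 CPM in the run 1 library, a 2.22-fold difference within 1 group. In c.del it was 2.18-fold higher from 129 and 1.89-fold higher from cast in run 2. For Dppa4 the same ratios of cast levels were 1.14 and 1.14, and that from 129 in c.del was 1.32. The 2 genes were not tested against each other. In both pairs the 2 libraries also differ in sample code, so run and sample cannot be told apart within them. Leaving out a.del and 4k.b.c, where cast was low, cast Dppa2 was 21.6 to 26.6 CPM in run 2. In run 1 it was 8.82 to 15.8 CPM, and how many genes separate in this way was not counted. The covariate, which rests on the ab.del and c.del pairs, put summed Dppa2 higher in run 2 by 1.09 (SE 0.21, limma adjusted p = 0.00858), and 15.7% of genes passed as higher. The median of all genes was 0.31 higher, and after centring each library on its median gene Dppa2 was 0.67 higher (adjusted p = 0.0611) and did not pass. Dppa4 was 0.24 higher (SE 0.19, adjusted p = 0.401) and, after centring, differed by -0.18. Summed levels of markers of other cell types were compared between the runs, with no test. The 3 mesoderm markers had medians of 0.409 CPM (T), 0 CPM (Mixl1) and 1.72 CPM (Eomes). Their sum was 2.46 to 5.92 CPM in run 2 and 0.660 to 1.98 CPM in run 1, and how many genes separate likewise was not counted. The sum of 3 neural markers was 1.93 to 22.2 CPM in run 2 and 1.13 to 7.47 CPM in run 1. Of these, Pax6 reached 21.7 CPM and Sox1 1.05 CPM, with Neurog2 at 0 in all 16 libraries. The sum of 5 primitive endoderm markers was 3.03 to 7.35 CPM in run 2 and 1.73 to 5.61 CPM in run 1. Their part in the level of Dppa2 was not tested, nor was what the 2 runs stand for. F121-9 and abc.del lie wholly in run 1, so ab.del, c.del and the single libraries of run 2 are set against F121-9 across runs unless the run is in the fit.

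The few reads left from 129 Dppa2 in abc.del lay mostly at the start of its line. That line starts at 48310274, downstream of the GENCODE start at 48303908. The authors' own segment for Dppa2 covers 16:48311883-48319513, so reads of the gene outside it fall in the first 1609 bases of the line. In abc.del 12 of 15 reads from 129 fell there, 80.0% (exact 95% interval 51.9% to 95.7%), with 6 of 7 and 6 of 8 in the 2 libraries. In ab.del it was 4 of 5 reads, and in ac.del 3 of 32, 9.38% (1.98% to 25.0%). F121-9 had 120 of 923 reads there (exact interval 10.9% to 15.3%). On cast the shares were 25.1% in abc.del (33.9% and 13.9% in its libraries), 19.8% in ab.del and 17.7% in F121-9. These intervals cover counting error only, and 2 libraries with 15 reads in all give no test across samples. No read of Dppa4 fell outside the authors' segment for it, 16:48284010-48294292.

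**Figure D4:**
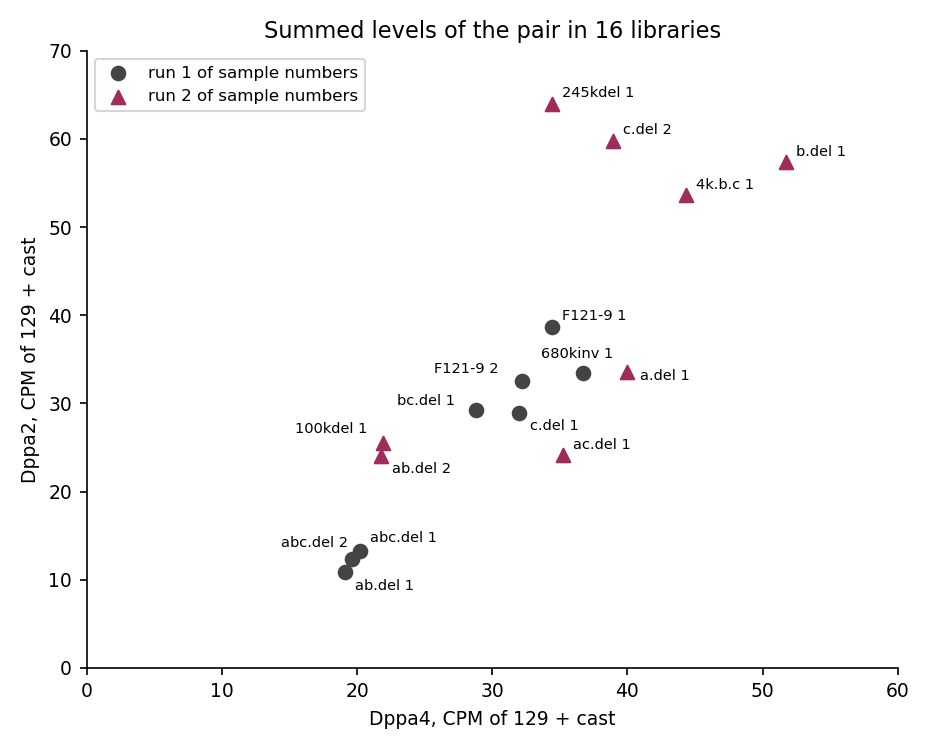
Summed CPM of Dppa2 (y axis) against Dppa4 (x axis) in the 16 libraries, with run 1 of the sample numbers as grey circles and run 2 as red triangles. The 3 libraries abc.del 1, abc.del 2 and ab.del 1 lie lowest, and 245kdel, at 64.0 CPM, lies highest on the Dppa2 axis.

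Across the 16 libraries the 2 genes tracked each other more closely than they tracked nearly all other genes. Among 10840 autosomal genes with a mean sum of at least 2 CPM, the gene most like Dppa4 in log2 summed level was Dppa2 (Pearson r = 0.86, Spearman rho = 0.82, n = 16), and Dppa4 had rank 4 for Dppa2. The r was 0.98 over the 8 libraries of run 1, 0.70 over the 8 of run 2, and 0.79 without the 2 libraries farthest from the median, ab.del 1 and abc.del 2. The points share libraries, depth, edits at 1 locus and the runs, so r is a description. Among the genes most like Dppa2 were Thsd7a (r = 0.91), a membrane protein with thrombospondin repeats, Hs6st3 (r = 0.88), a heparan sulfate sulfotransferase, and Snx7 (r = 0.85), a sorting nexin. Thsd7a ran from 5.66 to 31.4 CPM and Hs6st3 from 20.9 to 142 CPM. Next to Dppa4 came Col4a1 (r = 0.84), a basement membrane collagen chain, Zfpm2 (r = 0.83), a cofactor of GATA factors, Brinp1 (r = 0.80) and Hs6st3 (r = 0.79). The most opposed gene was Wdcp for both, with r = -0.87 for Dppa2 and -0.83 for Dppa4, at 11.2 to 28.3 CPM. After it came Usp29 (r = -0.81) and Nme7 (r = -0.81) for Dppa2, and 4833420G17Rik (r = -0.75) and Cwc25 (r = -0.75) for Dppa4. Over all these genes the median r was 0.11 for Dppa2 and 0.06 for Dppa4. Morc1, the next expressed neighbour 112 kb downstream of Dppa2, had r = 0.16 with Dppa2 and 0.31 with Dppa4. Its r was 0.79 and 0.83 within run 1, and -0.39 and -0.01 within run 2.

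Genes that mouse embryonic stem cells are reported to need Dppa2 or Dppa4 for were described from lists. Of the 3 listed germline and heart genes, 2 had enough reads, Syce1, a protein of the synaptonemal complex, and Mael, a germline protein of the piRNA pathway. In abc.del, Syce1 (7:140777229-140787854, minus strand) gave 0.757 and 2.59 CPM. In ab.del it gave 2.07 and 1.94 CPM, against 7.20 and 5.70 CPM in F121-9. Mael (1:166201385-166238744, minus strand) gave 0.641 and 0.804 CPM in the abc.del libraries and 1.51 and 1.16 CPM in the ab.del libraries, against 2.44 and 5.07 CPM in F121-9. Both were lower in all 4 libraries than in either F121-9 library, and 14.6% of all genes were. Other libraries were also below both F121-9 libraries. For Mael these were ac.del (1.35 CPM), b.del (1.37 CPM), bc.del (1.43 CPM), a.del (1.71 CPM) and c.del replicate 1 (1.86 CPM). For Syce1 they were a.del (1.18 CPM), ac.del (2.47 CPM), 4k.b.c (2.83 CPM), c.del replicate 1 (2.85 CPM) and b.del (4.40 CPM). Neither passed in limma: each differed by -2.02 in abc.del, with adjusted p = 0.313 for Syce1 and 0.261 for Mael, and by -1.58 and -1.29 in ab.del (adjusted p = 0.615 and 0.646). Of all genes, 0.220% passed in abc.del and 0.0497% in ab.del. Mael passed in abc.del by DESeq2 (adjusted p = 0.0302), and Syce1 did not (0.0704).

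**Figure D5:**
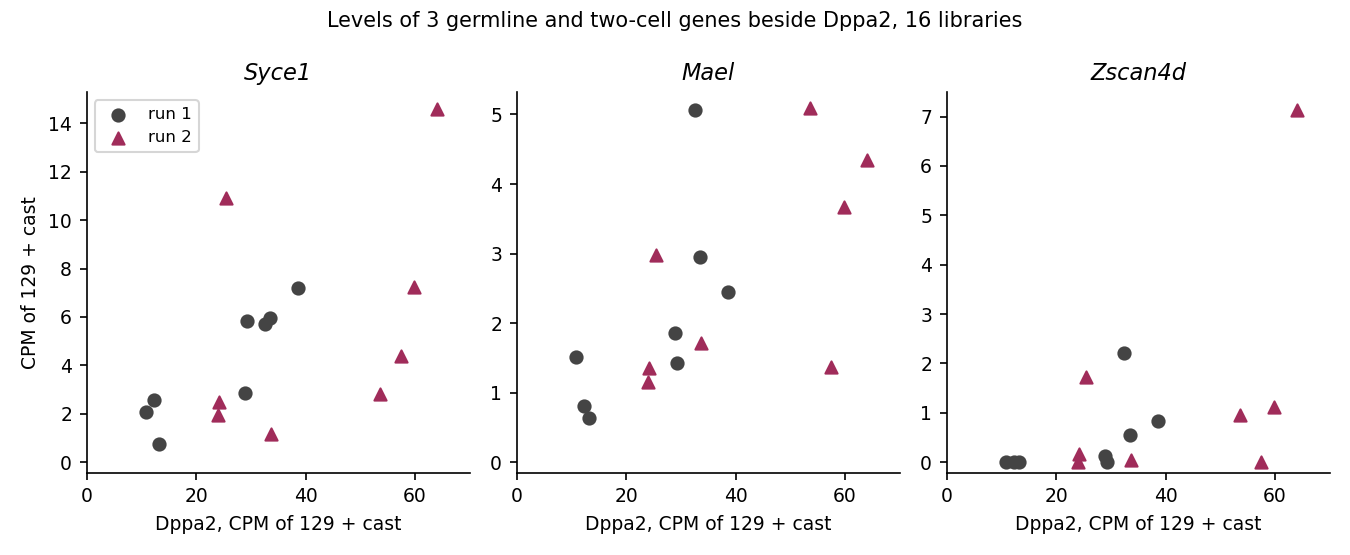
Summed CPM of Syce1, Mael and Zscan4d (y axes, each on its own scale) against summed CPM of Dppa2 (x axis) in the 16 libraries, with circles for run 1 and triangles for run 2 of the sample numbers. The 3 libraries with the lowest Dppa2 hold 0 reads of Zscan4d, as do ab.del 2 and bc.del, while in run 2 Zscan4d reaches 7.14 CPM in 245kdel and 0 CPM in b.del at like Dppa2 levels.

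Most of the two-cell stage list, genes active in the early mouse embryo and in a small share of embryonic stem cells, could not be assessed. Of 29 listed names 24 were in the table and 4 passed the filter on low values. In 245kdel these 4 gave 7.14 CPM (Zscan4d), 5.72 CPM (Usp17la), 4.04 CPM (Usp17le) and 6.56 CPM (Gm8300). Zscan4d (7:11161643-11166148, minus strand) had 0 reads in abc.del and 0 reads in ab.del, against 56 reads in F121-9 (0.838 and 2.22 CPM). It has near-identical copies, so its reads are uncertain. Usp17le, a ubiquitin protease of another multicopy family, gave 0 and 0.0574 CPM in the abc.del libraries and 0.214 and 0 CPM in the ab.del libraries, against 1.25 and 0.512 CPM in F121-9. No test or median is given for the 4 assessed members, which were at or near 0 in abc.del and ab.del and passed the filter through other libraries. Zscan4d did not follow Dppa2 in every library: it was 7.14 CPM in 245kdel at 64.0 CPM of Dppa2, and 0 CPM in b.del at 57.4 CPM. With summed Dppa2, r over 16 libraries was 0.58 for Syce1 and 0.69 for Mael. It was 0.82 and 0.75 within run 1, and 0.43 and 0.60 within run 2.

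Genes of chromatin complexes at such promoters and other regulators of Dux all passed the filter on low values. In limma, 0 of 10 chromatin members and 0 of 8 Dux regulators passed in abc.del or ab.del, where 0.220% and 0.0497% of all genes did, so that counts of 0 are no result about these lists. The chromatin members had a median difference of 0.18 in abc.del and 0.11 in ab.del, and the regulators 0.42 and 0.30, beside 0.04 and 0.08 over all genes tested. Cxxc1, a CpG-binding subunit of a histone methyltransferase complex, gave 2.75 and 3.76 CPM in the abc.del libraries and 2.84 and 4.60 CPM in the ab.del libraries, against 0.687 and 0.627 CPM in F121-9 (2.00 and 2.16, adjusted p = 0.351 and 0.466). Ash2l, a core subunit of the same kind of complex, gave 273 and 249 CPM in the abc.del libraries and 253 and 272 CPM in the ab.del libraries, against 199 and 194 CPM in F121-9 (0.41 and 0.42, adjusted p = 0.454 and 0.612). Cxxc1 passed in abc.del with the run as covariate (limma adjusted p = 0.0498), where 4.76% of genes passed. It was above both F121-9 libraries in every other library, from 1.04 CPM in 680kinv to 5.84 CPM in c.del replicate 2. Over 16 libraries its r with summed Dppa2 was 0.04. Ash2l was also above both F121-9 libraries in all others but 100kdel (177 CPM) and 245kdel (167 CPM). Among the regulators, Chaf1b, a subunit of chromatin assembly factor 1, differed by 0.48 in abc.del (adjusted p = 0.518) and 0.30 in ab.del (0.754). Dppa3, a maternal factor of the early embryo, gave 12.5 and 6.99 CPM in the abc.del libraries, against 3.60 and 4.70 CPM in F121-9 (1.14, adjusted p = 0.556). Ncl, the nucleolar protein nucleolin, gave 333 and 939 CPM in ab.del against 308 and 255 CPM in F121-9 (1.00, adjusted p = 0.707). The library at 939 CPM was of run 2, where Ncl gave 738 to 1127 CPM, against 255 to 470.1 CPM in run 1. With the run as covariate the ab.del difference was 0.20 (SE 0.17).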

How the data were processed

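One deposited table gave the Bru-seq values, with a 129 and a cast column for each of 16 libraries. The submitters' processing notes name Bowtie2, bedtools and mm10, with no version given in the sources used. Mapping quality was at least 10 and alleles were told apart by SNPs, per the file headers. The submitters describe the table as RPKM, but the deposited values behave as CPM, every column adding up to 1000000 (42497 lines). When a column is divided by its lowest positive value, 100.0% of the results are whole reads (tolerance 0.01). From these reads edgeR called 18 genes in abc.del and 11 in ab.del against F121-9 (summed copies), and DESeq2 353 and 187. All 32 columns were mapped, leaving 0.

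The members, lists and tests were chosen with earlier results of these data known. Genes averaging at least 0.2 CPM per copy (0.4 summed) were tested on log2(CPM + 0.1), or log2(sum + 0.2), a scale that understates changes of low genes. The 4 groups of 2 were fitted in R 4.3.3 by limma 3.58.1 with an intensity trend, and two-sided p-values were adjusted over all genes (Benjamini-Hochberg). Sites were compared by exact permutation of the 12 lettered libraries. Named genes were the pair, the neighbour Morc1, the 5 most and 3 least like each gene (1 is not reported here), and list members by call or smallest p. Alternatives were pseudocounts of 0.01 and 1, no filter or 1 CPM, median centring, quantile normalization, other fits, edgeR 4.0.16, DESeq2 1.42.0 and leaving out each library. The run coefficient, fits combining the run with centring, edgeR or sites, and other fits of list genes were added after the data were seen. Intervals and the floor of 3 reads (0.0833 to 0.329 CPM) cover counting error only. Scripts were tested on simulated data, in Python 3.11.15 with scipy 1.17.1, numpy 2.4.6, matplotlib 3.10.9 and pandas 2.3.3.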

Additional observations from a re-analysis of the deposited data

Results flagged for a closer look

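In 36 sets of libraries and quantities, 5 had 1 library far from the others, where chance alone marks about 1 set in 20. Dppa2 from 129 in a.del (33.6 CPM) stood apart from the other 5 libraries naming site a, and its cast copy had 0 reads there. Summed Dppa2 in c.del replicate 2 (59.8 CPM, run 2) stood above the other libraries naming site c. In b.del, cast Dppa4 (27.9 CPM) stood above the other lettered libraries without site a, and also above those without site c. Summed Dppa4 in b.del (51.7 CPM) stood above the other libraries naming site b.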

How the results depend on the processing

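No paired analysis was possible because only the F121-9 samples carry replicate numbers in the labels. Among settings that left out no library, 431 kept direction and side of the threshold or stayed close, 45 turned the sign, 31 moved a count of genes, 12 gained a call and 1 lost it. The cause was not tested for any of them, and no difference that passed turned its sign.

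Summed Dppa2 in abc.del passed with only the 2 groups (-1.46), with the run of sample numbers as covariate (-1.46), with the run and median centring (-1.50), in DESeq2 (-1.59) and in edgeR with the run (-1.57). In ab.del it passed with the run (-1.67), the run and centring (-1.58) and edgeR with the run (-1.72). Summed Dppa4 in abc.del passed in edgeR with the run (-0.81). Dppa2 between the runs lost its call with centring (0.67). For site a, limma with additive sites and run called summed Dppa2 (-1.20), and the lower Dppa2 copy passed with additive sites (-5.52) and with the run added (-5.63).

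The sign turned for Dppa2 with the run, the run and centring, and edgeR with the run: in c.del summed (-0.31, -0.26, -0.32), in c.del from 129 (-0.07, -0.02, -0.24), in c.del from cast (-0.33, -0.18, -0.33) and in ab.del from cast (-0.30, -0.18, -0.27). For Dppa4 in c.del it turned with median centring, quantile normalization, the run, edgeR, DESeq2 and edgeR with the run: summed (-0.07, -0.03, -0.04, -0.03, -0.04, -0.02) and from cast (-0.07, -0.05, -0.07, -0.06, -0.09, -0.06). Cast Dppa4 turned in abc.del with centring (-0.01) and with run and centring (-0.01), and in ab.del with centring (-0.04) and with the run (-0.01). Dppa4 between runs turned with run and centring (summed -0.18, 129 -0.16, cast -0.30) and in edgeR (summed -0.01). By site, Dppa2 turned within run 2 for site b (summed 0.03, lower copy 0.87) and site c (summed 0.08), within run 1 for site c (lower copy -0.60), and for site b in the additive fits (lower copy 0.03, with run 0.13). Dppa4 turned for site c summed within run 2 (0.06), for the higher copy at site a with centring (-0.06), within run 2 (-0.17) and additive with run (-0.05), and for the lower copy at site c with a pseudocount of 0.01 (0.27), within run 2 (2.16) and additive with run (0.27).

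Genes called in abc.del were 13 with a pseudocount of 0.01, 54 with no filter, 15 with a filter of 1 CPM, 85 with centring, 51 with quantile normalization, 599 with only the 2 groups, 671 with the run, 907 with run and centring, 18 in edgeR, 353 in DESeq2 and 677 in edgeR with the run, against 31. In ab.del they were 37 with a pseudocount of 1, 52 with no filter, 36 with centring, 32 with quantile normalization, 21 with only the 2 groups, 202 with the run, 332 with run and centring, 30 without trend, 11 in edgeR, 187 in DESeq2 and 216 in edgeR with the run, against 7. In c.del they were 31, 44, 28, 23, 207, 360, 28, 224 and 215 with a pseudocount of 1, no filter, centring, quantile normalization, the run, run and centring, no trend, DESeq2 and edgeR with the run, against 7.

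Leaving out each library in turn, Dppa2 ran from -1.69 (without ab.del replicate 2) to -0.56 (without ab.del replicate 1) for ab.del summed, from -2.89 (without a.del replicate 1) to -1.31 (without ab.del replicate 1) for site b lower copy, from -0.29 to 0.75 for c.del summed, from -5.61 to -5.28 for abc.del 129, from -6.74 to -6.57 for ab.del 129, from -0.31 to 0.81 for c.del 129, from -0.35 to 0.03 for abc.del cast, from -0.36 to 0.78 for ab.del cast, from -0.27 to 0.64 for c.del cast, from -0.04 to 1.55 for site c lower copy. Dppa4 ran from -0.06 to 0.22 for c.del summed, from -7.15 to -6.50 for abc.del 129, from -7.22 to -7.09 for ab.del 129, from -0.04 to 0.36 for c.del 129, from -0.01 to 0.18 for ab.del cast, from -0.07 to 0.11 for c.del cast, from -0.02 to 0.12 for site a higher copy, from -0.04 to 0.10 for site b higher copy, from -1.07 to 0.90 for site c lower copy. Genes called ran from 0 to 156 for abc.del, from 0 to 53 for ab.del, from 0 to 29 for c.del. Counts of 0 to 32 reads set the values of the nearly silent copies, and most of their folds have wide counting intervals. With 2 libraries a group, and F121-9 and abc.del in run 1 alone, a call depends on each F121-9 library. Rises of the cast copy up to the upper ends of its intervals lay inside them. The rise needed was taken from the 2 F121-9 libraries with no error of its own. The labels name no edited copy, so tests by site use the lower and higher copy.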
